A study of Mus musculus with 6 samples.

Results

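The genes described here make up the folding and quality-control machinery of the endoplasmic reticulum, together with the sensors of its unfolded protein response. They were a list of 32 gene symbols, and each row of the deposited files whose symbol matched the list was taken. The matching used no measured value, but the list was drawn up with earlier results of these data known. All 32 symbols were found, each once, among the 55487 genes listed in the files. A filter on low counts kept 15727 genes for testing, 31 of the 32 among them, and Derl3 was not tested. The samples were left ventricles of male wild-type C57BL/6 mice, 8 weeks old, with 3 libraries in each of 2 groups. Mice of the ET group ate a 5% ethanol diet over 10 days and then received 1 ethanol gavage, and their disease state is labelled alcoholic cardiomyopathy. Mice of the CONT group ate an isocaloric diet, received maltose-dextrin by gavage and carry no disease label. In both groups tissue was taken 9 h after the gavage, so the chronic diet and the final dose cannot be told apart. The labels do not state that each library came from a separate mouse, so a p-value reflects the spread between libraries, which may be technical. The RNA came from whole tissue, in which fewer cells of a type and less RNA per cell cannot be told apart.

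Secreted and membrane proteins fold in the lumen of the endoplasmic reticulum with the help of Hsp70 and Hsp90 chaperones, lectin chaperones that read N-glycans, and enzymes that form disulfide bonds. When unfolded proteins accumulate, the sensors Ern1 (IRE1), Eif2ak3 (PERK) and Atf6 are activated. They slow translation, splice the Xbp1 transcript and raise transcription of chaperones and of the machinery that returns misfolded proteins to the cytosol for destruction by the proteasome. In heart muscle the related sarcoplasmic reticulum stores the calcium that drives each contraction.

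ATF6 acts with the factor NF-Y on a promoter element known as the endoplasmic reticulum stress element, and it is searched here as CCAAT, then any 9 bases, then CCACG. A shorter form, called the second element here, is ATTGG, any 1 base, then CCACG. Both strands were searched in the RefSeq windows of GRCm38.p6, which run from 250 bases before to 50 bases after the annotated start. A window was matched for 28 of the 32 genes, and Manf, Hyou1, Atf6 and Derl1 had no match. The promoter of Hspa5 is shown because BiP, its product, is the reference target of the response. Its 250 bases upstream of the start lie on the plus strand at chr2:34771840-34772089, with the element in capitals.
Hspa5: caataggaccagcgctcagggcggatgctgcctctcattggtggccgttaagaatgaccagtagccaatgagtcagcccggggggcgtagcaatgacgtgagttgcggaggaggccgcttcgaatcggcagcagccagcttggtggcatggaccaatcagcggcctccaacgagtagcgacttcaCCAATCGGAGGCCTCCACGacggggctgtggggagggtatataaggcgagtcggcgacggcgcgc

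The full element stood in 10 of the 28 matched windows, against 37 of the 27025 genes with a RefSeq window (0.137%). The 9 genes besides Hspa5 are Hsp90b1, which has 2 copies, Calr, Canx, Pdia6, Dnajc3, Creld2, Syvn1, Derl3 and Ero1lb. The copies of the genes that the results below turn on are printed 5′ to 3′ along the gene's own strand, with the element in capitals and 8 bases on each side, so that the shared outer blocks and the unlike 9 inner bases can be compared. Where the capitals begin with CGTGG, the element lies on the opposite strand. The second Hsp90b1 copy, at chr10:86705525-86705559, and the Calr copy, at chr8:84847067-84847101, are of that kind. The other copies lie at chr10:86705630-86705664 for the first of Hsp90b1, chr14:118937819-118937853 for Dnajc3, chr11:50325792-50325826 for Canx and chr12:17266483-17266517 for Pdia6.
Hsp90b1, first copy: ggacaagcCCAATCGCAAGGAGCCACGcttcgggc
Hsp90b1, second copy: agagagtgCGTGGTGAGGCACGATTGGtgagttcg
Dnajc3: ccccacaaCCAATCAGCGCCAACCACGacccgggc
Calr: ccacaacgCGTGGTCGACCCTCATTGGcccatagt
Canx: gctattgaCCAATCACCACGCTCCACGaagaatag
Pdia6: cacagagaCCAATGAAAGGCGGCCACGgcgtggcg

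The second element stood in 2 of the 28 windows, those of Herpud1 and Dnajb11, and in 12 of 27025 genes (0.0444%). The Herpud1 copy is printed because this gene had the highest level of the list, and it lies on the plus strand at chr8:94386369-94386395.
Herpud1: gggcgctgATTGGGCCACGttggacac

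Together 12 of the 28 genes (42.9%) held an element of either form, against 0.181% of all genes. The list was chosen for its known part in the response that these elements serve, so this excess is a description and no independent result. The block CCAAT alone is common, in 78.6% of the 28 windows and 41.1% of all genes. Upstream of the start, the elements lay between 26 and 212 bases away, and the Hspa5 copy spanned 65 to 47 bases before it. The letters TGACGTCA (the cyclic AMP response element), TGACGTGG (an unfolded protein response element) and TGATG, any base, AAT (the pair of sites read by ATF4 with C/EBP factors) stood in 0 of the 28 windows, and in 2.03%, 0.714% and 1.08% of all genes. A match is a description of letters, not of a bound site, and a lack of one says only that these letters are not in the window.

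**Figure D1:**
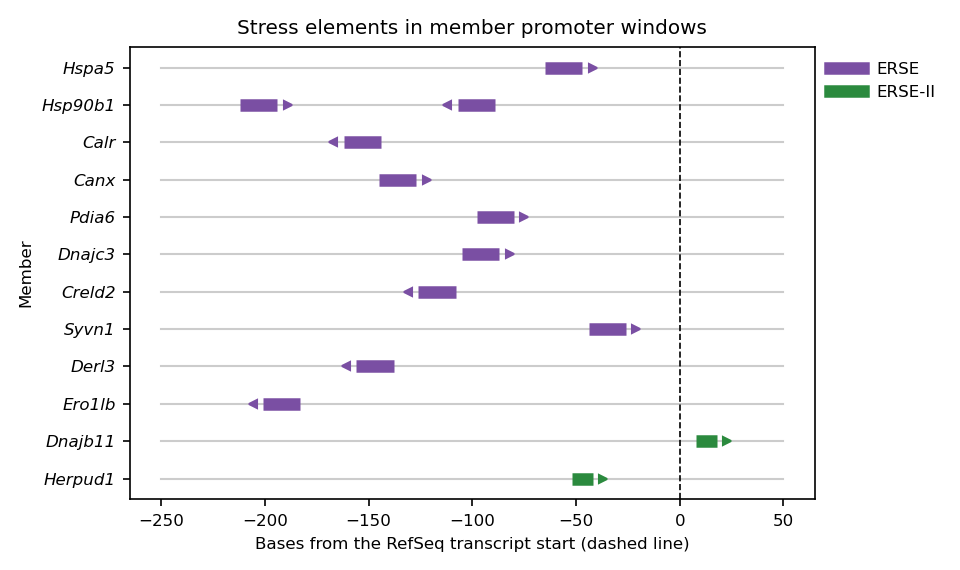
Position of each stress element relative to the RefSeq start of its gene, in bases (negative is upstream), for the 12 genes that hold one. The 10 genes with the full element carry it upstream of the start, and the shorter form lies 52 to 42 bases before the start of Herpud1 and 8 to 18 bases after that of Dnajb11.

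In TPM, a transcript level corrected for gene length and library total, the median of the 31 tested genes was 13.3, against 4.08 over all tested genes. Of the 31, 26 lay above that median of all genes. Herpud1, which anchors the degradation complex in the membrane, had the highest mean level over the 6 libraries, 179 TPM. Hspa5 followed with 121 TPM, Calr (calreticulin) with 116 TPM, P4hb (protein disulfide isomerase) with 98.2 TPM and Hsp90b1 (GRP94) with 75.3 TPM. The ordering of neighbours is loose, since the spread between libraries of Hspa5, with a mean of 98.7 ± 12.0 TPM in CONT and 144 ± 19.4 TPM in ET (SD, n = 3), spans the means of Calr and P4hb. The lowest level was that of Derl3, a derlin of the retrotranslocation channel, with 0.31 TPM, or 0.0294 to 0.488 CPM per library, a count scaled to the library's size and not to length.

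**Figure D2:**
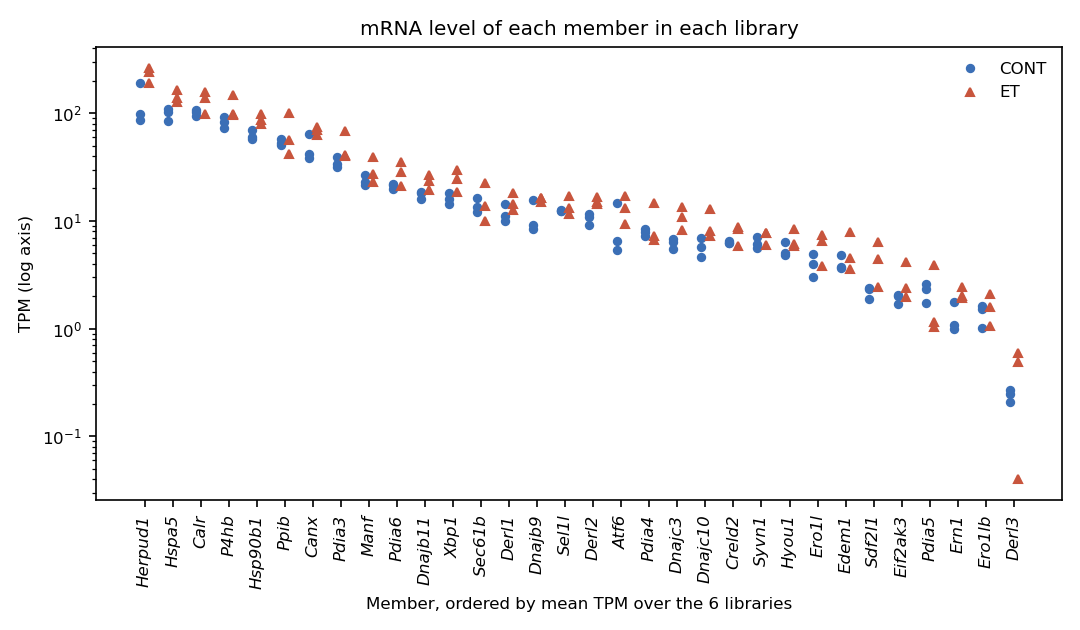
TPM (log axis) of the 32 genes in each of the 6 libraries, with genes ordered by mean TPM and 1 point per library. Herpud1, Hspa5 and Calr lie above 100 TPM on average, and Derl3 lies below 1 TPM in its mean.

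The libraries held 28838386 to 37762233 expected counts, and mitochondrial genes took 27.8% to 31.9% of them. The libraries were clustered by the effective gene lengths in the files, with the number of sets fixed at 2. The labels name no such sets, and what sets them apart was not tested. CONT 1, CONT 2 and ET 1 form the first set, and CONT 3, ET 2 and ET 3 the second. Of 8090 genes, 1958 (24.2%) had non-overlapping lengths in the 2 sets. The sets were formed from these same lengths, so this share describes the split and does not test it. Differences in CPM were also computed within each set. Among the 9 cardiomyocyte markers, 8 had a fold change below 0 and 1, Ryr2, above 0. The 3 markers Tnni3, Myl2 and Myl3 were lower in ET without overlap, as were 8.36% of all tested genes. The cardiomyocyte markers summed to 62184 to 69189 CPM in CONT, and to 37602 in ET 1 against 63203 and 56832 in ET 2 and ET 3. ET 1 also had the highest sum of the fibroblast markers (2121 CPM, against 611 to 818 in the other libraries), of the atrial markers (9030 against 60.9 to 1533 CPM) and of the macrophage markers (347 against 141 to 161 CPM). It had the highest mesothelial sum as well (196 against 0.36 to 29.9 CPM). ET 3 had the highest sums of the hepatocyte markers (101 against 0.24 to 5.6 CPM) and of the neutrophil markers (46.3 against 1.72 to 7.71 CPM). Of the 7 endothelial markers, 6 had a fold change below 0. The 7 summed to 1246, 1141 and 662 CPM in CONT 1 to 3 and to 969, 834 and 603 CPM in ET 1 to 3. Their median log2 ratio of ET over CONT was -0.39 in the first set and 0.06 in the second. The 6 smooth muscle and pericyte markers were all above 0, with sums of 494 to 795 and 566 to 1160 CPM. Of these marker lists no gene was at 0 in all libraries. The markers of B and plasma cells, which are rich in these chaperones, summed to 16.5 CPM in ET 1, of which Sdc1 was 14.0 CPM. In the other libraries they summed to 4.69 to 6.85 CPM. The joining chain gene Jchain lay between 0.03 and 0.24 CPM.

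Most chaperone and sensor transcripts had a somewhat higher mean level in ventricles of ethanol-fed mice, and none of these differences passed the test. The fitted log2 fold change of ET over CONT was above 0 for 28 of the 31 tested genes, against 51.9% of all tested genes, and below 0 for Pdia5, Ero1lb and Sec61b. Its median was 0.21, against 0.01 over all genes, and it ranged from -0.24 (Pdia5) to 0.80 (Sdf2l1). The highest of the 6 CPM values belonged to an ET library in 28 of the 31 genes, and the lowest to a CONT library in 23, against 61% and 36.3% of all genes. With edgeR's quasi-likelihood fit and Benjamini-Hochberg adjusted p-values, no gene of the list passed 0.05, and the lowest adjusted p was 0.478. The same holds over all genes, where 0 of 15727 (0.0%) passed and 1360 had an unadjusted p under 0.05. DESeq2 called 184 genes (1.17%), 1 of the list among them. With limma-voom 0 of 15727 genes were called, so none of the list.

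An unadjusted p under 0.05 with a higher level in ET was reached by Dnajc3, Ern1, Sdf2l1 and Dnajc10, which is 4 of 31 against 4.19% of all genes, and none of the list reached it with a lower level. In 6 genes every ET library lay above every CONT library in CPM, namely Hsp90b1, P4hb, Dnajb11, Dnajc3, Ern1 and Sel1l, against 6.89% of all genes. The reverse order held for 0 of the 31, against 8.36% of all genes. On the TPM scale, where the median of all genes was itself higher in ET, 12 genes of the list did not overlap and were higher in ET, against 12.3% of all genes.

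**Figure D3:**
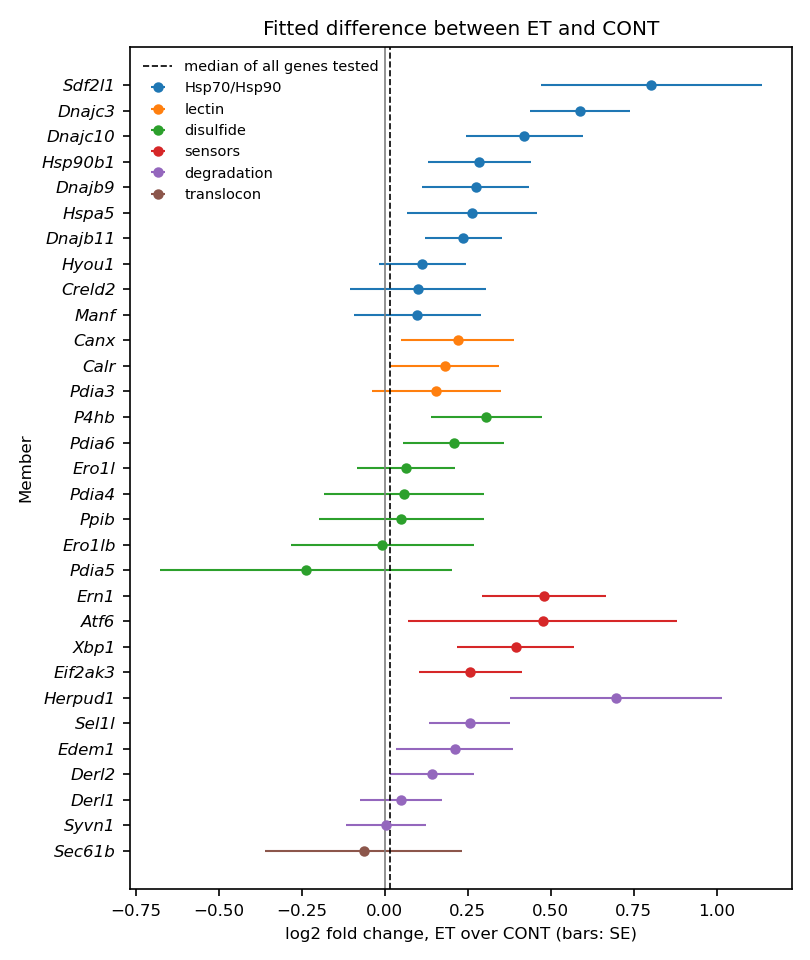
Fitted log2 fold change of ET over CONT with its standard error for the 31 tested genes, grouped by role, with a solid line at 0 and a dashed line at the median of all genes (0.01). The points of 28 genes lie above 0, and none passed the test across all genes.

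Within the library sets the median log2 ratio of the 31 genes was 0.30 in the first, where ET 1 stands against CONT 1 and CONT 2, and 0.13 in the second, where ET 2 and ET 3 stand against CONT 3. The medians of all genes were -0.02 and 0.01. In both sets 22 of the 31 genes were higher in ET and 0 were lower in both, against 26.3% of all genes higher in both. The mean over the genes of the log2 CPM, centred on each gene, was -0.16, -0.08 and -0.08 in CONT 1 to 3 and 0.24, -0.01 and 0.09 in ET 1 to 3. ET 1 was thus the highest library, and ET 2 lay the closest to CONT. ET 1 held the highest value of 16 genes and the lowest of none, and ET 3 held the highest of 8. The part of the marker differences of ET 1 and ET 3 in these values was not tested. Without ET 1, 23 of 31 genes were higher in ET and the median was 0.17, against -0.01 for all genes.

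**Figure D4:**
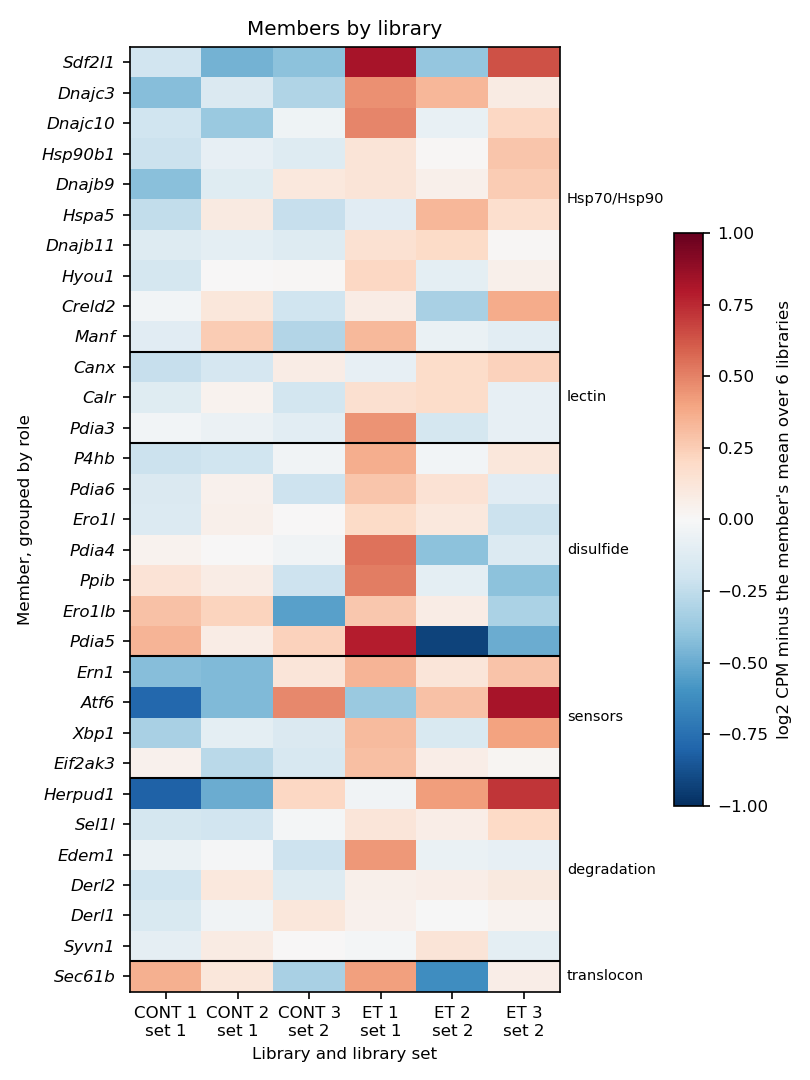
Log2 CPM of each tested gene minus its mean over the 6 libraries (colour, with red higher and blue lower), with libraries in columns marked by set and genes in rows grouped by role. ET 1 is highest in 16 of 31 genes, among them most of the disulfide-forming enzymes, and CONT 1 is lowest in 12.

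All 10 Hsp70 and Hsp90 chaperones and cofactors had a fold change above 0, with a median of 0.27, 0.29 in the first set and 0.25 in the second. Of the 10, 3 were higher in ET without overlap between groups, against 6.89% of all genes. Hspa5 (BiP, the Hsp70 of the reticulum, at chr2:34771970-34777547) measured 223, 281 and 225 CPM in CONT and 245, 333 and 297 CPM in ET. The means were 243 ± 32.8 and 292 ± 44.6 CPM (SD, n = 3), and the groups overlapped through CONT 2. The log2 fold change was 0.26 ± 0.20 (SE, edgeR adjusted p = 0.676), with ratios of -0.04 in the first set and 0.48 in the second. Hsp90b1 (GRP94, the Hsp90 of the reticulum, at chr10:86690209-86705509) measured 171, 186 and 181 CPM in CONT and 216, 200 and 240 CPM in ET. Every ET library was above every CONT library. The means were 180 ± 8.00 and 219 ± 20.3 CPM, the fold change 0.28 ± 0.16 (edgeR adjusted p = 0.604) and the ratio 0.28 in each set. Part of its exon length, 10.3%, is shared with 1810014B01Rik on the opposite strand, and the use of strand in counting is not given in the sources used here.

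Dnajc3 (p58IPK, a BiP cofactor that also restrains the kinase PERK, at chr14:118937976-118981697) had the lowest p of the list. It measured 30.5, 37.0 and 33.2 CPM in CONT and 56.2, 51.6 and 43.3 CPM in ET, with means of 33.5 ± 3.29 and 50.4 ± 6.53 CPM. The groups were separated by a clear gap, and the ratio was 0.74 in the first set and 0.52 in the second. The fitted log2 fold change was 0.59 ± 0.15, with an unadjusted p of 0.00595 and an edgeR adjusted p of 0.478. DESeq2 gave 0.60 with an adjusted p of 0.0466, the only call of the list under that tool. Its promoter holds the full element printed above.

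Dnajb11 (ERdj3, a cofactor that brings substrates to BiP) was the tightest of the separated genes, with 32.9, 33.5 and 32.9 CPM in CONT and 39.9, 40.9 and 36.1 CPM in ET. Its log2 fold change was 0.24 ± 0.12 (edgeR adjusted p = 0.585). Dnajc10 (ERdj5, a reductase that opens disulfide bonds of proteins bound for degradation) measured 23.5, 20.8 and 26.2 CPM in CONT and 37.8, 25.6 and 31.1 CPM in ET. Here CONT 3 exceeded ET 2, and the ratio was 0.77 in the first set but 0.11 in the second, with a fold change of 0.42 ± 0.18 (edgeR adjusted p = 0.572). Sdf2l1, a BiP partner of low abundance, measured 2.68, 2.21 and 2.31 CPM in CONT and 5.44, 2.35 and 4.78 CPM in ET. ET 1 and ET 3 lay well above all CONT libraries and ET 2 lay among them, for a fold change of 0.80 ± 0.33 (edgeR adjusted p = 0.572), the highest of the list.

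The remaining cofactors had fold changes between 0.10 and 0.27. Dnajb9 (ERdj4, which returns IRE1 to its resting state) had a log2 fold change of 0.27 ± 0.16, Hyou1 (the nucleotide exchange factor GRP170) 0.11 ± 0.13, and Manf and Creld2, secreted proteins of the stress response, 0.10 ± 0.19 and 0.10 ± 0.20. Manf measured 18.0, 23.1 and 15.9 CPM in CONT and 24.3, 18.5 and 18.0 CPM in ET, so that the groups overlapped over most of their range. A share of 8.85% of the exon length of Manf lies opposite Dcaf1 and 4930524O07Rik.

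The lectin chaperones and their oxidoreductase had fold changes of 0.16 to 0.22, and all 3 overlapped between groups. Calr (calreticulin) measured 180, 200 and 172 CPM in CONT and 219, 222 and 184 CPM in ET. Only ET 3 fell within the CONT range, and the fold change was 0.18 ± 0.16 (edgeR adjusted p = 0.724), with 0.20 and 0.24 in the sets. Canx (calnexin) measured 133, 139 and 164 CPM in CONT and 148, 178 and 183 CPM in ET, a fold change of 0.22 ± 0.17. In each group its lowest libraries were those of the first set. Pdia3 (ERp57, which pairs with both lectins) measured 86.9, 85.4 and 82.3 CPM in CONT and 121, 78.5 and 83.9 CPM in ET. ET 1 alone stood above the CONT range, and without it the log2 fold change was -0.05, against 0.16 ± 0.20 with it.

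The 7 genes of disulfide formation and prolyl isomerisation leaned on ET 1. They had a median of 0.06, with 5 above 0 and 2 below, and ET 1 was the highest ET library in all 7 and the highest of the 6 libraries in 6. The ratio within the first set had a median of 0.41 and that within the second -0.03, and without ET 1 only 2 of 7 genes were above 0, with a median of -0.13. ET 1 is the library with the highest fibroblast, atrial and macrophage marker sums and the lowest cardiomyocyte sum, given above, and the part of these cells in the result was not tested. P4hb, the most abundant disulfide isomerase here and also a subunit of collagen prolyl hydroxylase, measured 132, 133 and 149 CPM in CONT and 196, 150 and 165 CPM in ET. Its groups did not overlap, though CONT 3 and ET 2 were close, and the fold change was 0.31 ± 0.17 (edgeR adjusted p = 0.603), with 0.57 and 0.08 in the sets.

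Ppib (cyclophilin B, a prolyl isomerase that acts on collagen) measured 54.8, 52.5 and 43.2 CPM in CONT and 71.4, 46.7 and 37.6 CPM in ET, with a log2 fold change of 0.05 ± 0.25. ET 1 was the highest and ET 3 the lowest of all 6 libraries. A share of 25.0% of its exon length lies opposite Snx22, which makes its level uncertain. Pdia4 (ERp72) measured 19.6, 19.2 and 18.7 CPM in CONT and 27.9, 14.5 and 17.4 CPM in ET, and Pdia5 3.61, 3.0 and 3.34 CPM in CONT and 4.91, 1.5 and 2.02 CPM in ET. In both, ET 1 was above and the other ET libraries below every CONT library, which gave fold changes of 0.06 ± 0.24 and -0.24 ± 0.44. Pdia6 (P5) measured 43.9, 49.9 and 42.0 CPM in CONT and 58.7, 53.4 and 44.7 CPM in ET, a fold change of 0.21 ± 0.15. The oxidases Ero1l and Ero1lb, which pass electrons from disulfide isomerase to oxygen, completed the group at 0.06 ± 0.15 and -0.01 ± 0.28.

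The 3 sensors and Xbp1 had the highest median of the roles, 0.43, with 0.47 in the first set and 0.15 in the second. Xbp1, the factor whose transcript IRE1 splices, measured 29.5, 34.6 and 33.5 CPM in CONT and 46.2, 33.2 and 48.8 CPM in ET, with means of 32.5 ± 2.66 and 42.7 ± 8.35 CPM. ET 1 and ET 3 were above and ET 2 was within the CONT range, as in Sdf2l1. The log2 fold change was 0.39 ± 0.18 (edgeR adjusted p = 0.574). Counts per gene hold no measure of splicing, so the active form of Xbp1 was not analysed here. Ern1 measured 7.85, 7.79 and 11.5 CPM in CONT and 13.4, 11.5 and 12.9 CPM in ET. The groups were separated only by the narrow gap between CONT 3 and ET 2, and the fold change was 0.48 ± 0.19 (edgeR adjusted p = 0.560), with 0.78 in the first set and 0.09 in the second.

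Atf6 (at chr1:170704674-170867771) had 41.6, 52.8 and 99.9 CPM in CONT and 55.5, 88.0 and 127 CPM in ET. Its level followed the library sets within each group: CONT 3, ET 2 and ET 3 exceeded the other 3 libraries. The log2 fold change was 0.48 ± 0.41 (edgeR adjusted p = 0.707), and the ratios within the sets were 0.23 and 0.10. Eif2ak3 measured 9.09, 7.30 and 7.87 CPM in CONT and 10.9, 9.20 and 8.95 CPM in ET, a fold change of 0.26 ± 0.16 (edgeR adjusted p = 0.628). Only CONT 1 reached into the ET range, and 8.05% of its exon length lies opposite Gm43292.

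All 6 tested genes of retrotranslocation and degradation had fold changes above 0, with a median of 0.18, 0.22 in the first set and 0.14 in the second. Herpud1 (at chr8:94386438-94395377) measured 155, 193 and 314 CPM in CONT and 265, 363 and 445 CPM in ET, with means of 221 ± 83.2 and 358 ± 90.02 CPM. As in Atf6, CONT 3 was the highest control and overlapped the ET range, and the ratios were 0.61 and 0.36 in the sets against a fitted log2 fold change of 0.70 ± 0.32 (edgeR adjusted p = 0.577). With the set as a term in the fit the change was 0.48, with an adjusted p of 0.454. Sel1l, the adaptor of the ubiquitin ligase Hrd1, measured 37.9, 37.6 and 42.4 CPM in CONT and 46.5, 44.9 and 49.2 CPM in ET. The groups did not overlap in CPM, and the fold change was 0.26 ± 0.12 (edgeR adjusted p = 0.582). In TPM they did overlap, with 12.42, 12.49 and 12.75 in CONT and 17.17, 13.32 and 11.63 in ET. The effective length of Sel1l in the second set was 1.28 times that in the first, the highest ratio of the tested genes.

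Syvn1, which encodes Hrd1 itself, measured 18.4, 20.7 and 19.7 CPM in CONT and 19.3, 21.4 and 18.3 CPM in ET, a log2 fold change of 0.00 ± 0.12. Its promoter holds a full element. Edem1, a lectin that hands misfolded glycoproteins to the ligase, measured 11.5, 12.0 and 10.5 CPM in CONT and 16.3, 11.5 and 11.4 CPM in ET. ET 1 alone stood out, and the fold change was 0.21 ± 0.18. The channel components Derl1 and Derl2 were at 0.05 ± 0.12 and 0.14 ± 0.13. Sec61b, a subunit of the channel through which new proteins enter, measured 8.57, 7.23 and 5.36 CPM in CONT and 8.88, 4.35 and 7.0 CPM in ET, at -0.06 ± 0.30.

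CONT 3 and ET 1 hold the most atrial marker mRNA of their groups. When both were left out, 828 of 15714 genes (5.27%) passed edgeR's adjusted p of 0.05, Herpud1 (1.24, adjusted p = 0.0241) and Atf6 (1.21, adjusted p = 0.0372) of the list among them. The controls that remain are all of the first set and the ET libraries all of the second, so the group and the set cannot be told apart in that fit. In the same fit the disulfide group had a median of -0.26 and the Hsp70 and Hsp90 group one of 0.33.

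**Figure D5:**
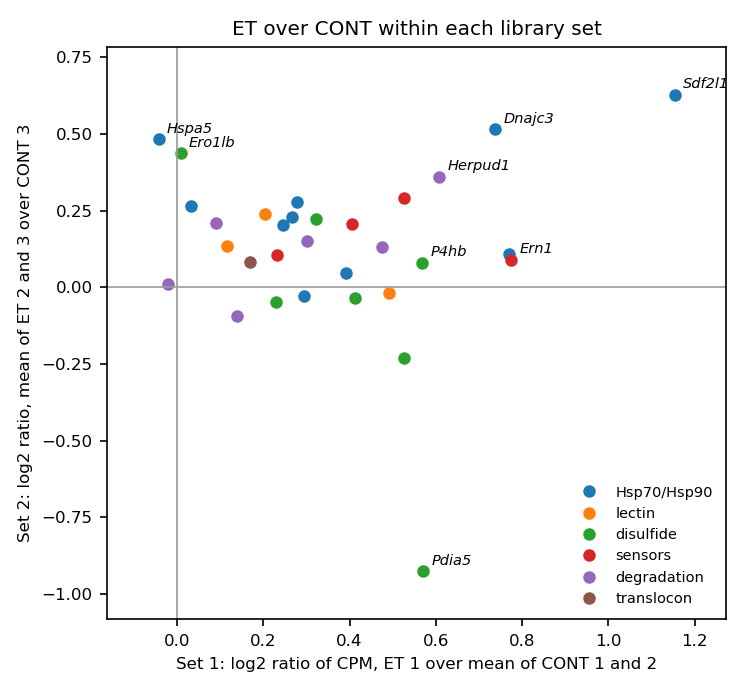
Log2 ratio of ET over CONT within the first library set (horizontal axis) and within the second (vertical axis) for each tested gene, coloured by role. In both sets 22 of 31 genes lie above 0, Hspa5 is higher in the second set and Pdia5 and Pdia4 are above 0 in the first and below 0 in the second.

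Fold changes were also set beside the promoter elements. The 11 tested genes with an element of either form had a median of 0.22, with 10 above 0 and 3 without overlap. The 16 tested genes with a window and no element had a median of 0.23, with 14 above 0 and 3 without overlap. The genes without overlap were higher in ET in both cases, against 6.89% of all genes. Within the sets the medians were 0.20 and 0.26 for genes with the element and 0.48 and 0.09 for those without. Of the 37 genes outside the list that hold an element, 15 were tested, 7 of them had a fold change above 0, 0 passed and the median was -0.03. This last group was added after the values of the list had been seen.

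No other gene of the pathway lists passed the test, and the lists differed in their counts. The PERK and ATF4 branch is the arm that slows translation and turns on amino acid and one-carbon enzymes. Of its genes 19 of 19 were tested, and 16 were above 0 with a median of 0.21, 0.26 in the first set and 0.19 in the second. Mthfd2, a mitochondrial folate enzyme, measured 2.22, 1.72 and 1.30 CPM in CONT and 5.17, 3.79 and 4.69 CPM in ET. It had the highest fold change of the genes named here, at 1.38 ± 0.27 (edgeR adjusted p = 0.427), with 1.39 and 1.70 in the sets. Atf5, a transcription factor of the same arm, was also without overlap, at 0.68 ± 0.19 (edgeR adjusted p = 0.50). Ddit3 (CHOP), the factor of this arm linked to cell death, went the other way, with 16.9, 19.6 and 16.2 CPM in CONT and 13.8, 10.7 and 10.2 CPM in ET. All its ET libraries lay below all CONT libraries, at -0.60 ± 0.16 (edgeR adjusted p = 0.478). The symbol has 2 overlapping gene IDs, which leaves its level uncertain. Atf4 itself was at 0.02 ± 0.13.

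Of the genes of translocation, signal peptidase and N-glycosylation 30 of 30 were tested, and 21 were above 0 with a median of 0.09. The median was 0.17 in the first set and 0.001 in the second. Without overlap and higher in ET were 5 of the 30, against 6.89% of all genes. Sec63, which couples the import channel to BiP, measured 45.1, 46.1 and 44.8 CPM in CONT and 63.5, 62.1 and 61.7 CPM in ET. The spread within each group was far smaller than the gap, with means of 45.3 ± 0.668 and 62.4 ± 0.954 CPM (SD, n = 3), and the ratio was 0.48 in the first set and 0.47 in the second. The fold change was 0.46 ± 0.12 (edgeR adjusted p = 0.478). Serp1, a stabiliser of membrane proteins during stress, measured 17.3, 17.8 and 16.4 CPM in CONT and 33.7, 17.9 and 33.8 CPM in ET. ET 2 stood at the CONT level, as it did for Xbp1 and Sdf2l1.

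Of 18 genes of export to and retrieval from the Golgi, all tested, 17 were above 0 with a median of 0.25. The median was 0.28 in the first set and 0.13 in the second. Without overlap and higher in ET were 4 of the 18, against 6.89% of all genes. Mia3, needed to load large cargo such as collagen, was at 0.43 ± 0.17 and the coat subunits Sec24d and Sec31a at 0.41 ± 0.18 and 0.38 ± 0.18, and in all 3 the ranges overlapped. Of 20 other degradation genes 14 were above 0 with a median of 0.08, 0.07 in the first set and 0.10 in the second. Edem3, Erlec1 and Os9, which trim or read the glycans of misfolded proteins, had no overlap, at 0.34 ± 0.12, 0.36 ± 0.14 and 0.26 ± 0.13. These are 3 of the 20 higher without overlap, against 6.89% of all genes. Other folding enzymes had 32 of 35 tested, 24 above 0 and a median of 0.17, though it was 0.26 in the first set and -0.02 in the second, as in the disulfide group. Dnajc1 was higher without overlap at 0.34 ± 0.12 and the thioredoxin-like Tmx2 lower without overlap at -0.42 ± 0.17, and Pdia2 was at 0 in all libraries. The other sensors had 8 of 13 tested genes above 0 with a median of 0.05, 0.02 in the first set and -0.02 in the second. The reticulum calcium genes had 7 of 9 above 0 with a median of 0.26, among them the calcium sensor Stim1 at 0.40 ± 0.16. Within the sets the calcium medians were 0.13 and 0.13.

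Among themselves the 31 genes varied only loosely together. The median Pearson correlation of log2 CPM over the 6 libraries was 0.35 for the 465 pairs, from -0.86 to 0.98, and 77.2% of pairs were above 0. P4hb (0.97), Dnajc10 (0.91) and Xbp1 (0.89) followed the mean of the list most closely, and Ero1lb (0.06) and Syvn1 (-0.14) least. Each of these genes is itself part of that mean, which raises its correlation. The genes outside the list whose levels lay closest to that mean were Pttg1ip, Isyna1 and Ccl6, each with a correlation of 0.99. These values describe 6 libraries that share groups and sets, and they carry no test.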

How the data were processed

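The authors deposited expected counts per gene, which are estimated and not normalized, in 1 table, and TPM and FPKM per library in separate files, per the file headers. The submitters' processing notes name STAR 2.7.0f, RSEM 1.2.31 and the build mm10. The release of the annotation and the strand setting of the counts are not stated (not given in the sources used here). Coordinates and exon overlaps come from GENCODE vM21 (GRCm38).

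Expected counts were rounded, filtered with edgeR's filterByExpr (minimum count 10, minimum total 15) and scaled by TMM, and CPM values carry that scaling. Groups were compared over all 15727 genes in edgeR with a robust quasi-likelihood fit (two-sided, Benjamini-Hochberg adjusted p-values, threshold 0.05). The SE of a log2 fold change is that change over the square root of F. Deposited FPKM values gave effective lengths together with the counts, for 8090 genes with at least 200 counts in every library. Average-linkage clustering of these, cut at 2 clusters, gave the 2 library sets. A symbol with several IDs stands for the ID with most counts. Scripts were tested on simulated data.

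The members and lists were chosen with earlier results of these data known. The rule for named genes gives values in every library for Hspa5, the sensors, Xbp1 and the 3 lowest p of each other role, and names at most 3 genes of each pathway list by lowest p. Library values of Hsp90b1, Dnajb11, Manf, Pdia4, Ppib and Syvn1, and the names of Atf4 and Pdia2, were added after the values were seen. Alternatives were DESeq2, limma-voom, limma-trend on TPM, other scalings and filters, a set term and leaving out libraries. The software was DESeq2 1.42.0, edgeR 4.0.16 and limma 3.58.1 in R 4.3.3, and matplotlib 3.10.9 with pandas 2.3.3 in Python 3.11.15.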

Additional observations from a re-analysis of the deposited data

How the results depend on the processing

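Over the alternatives run, 23 to 30 of the tested members had a fold change above 0, and the median of the members lay between 0.14 and 0.44, against 28 and 0.21 in the main analysis. The value of 0.44 came from limma-trend on log2(TPM + 0.1), a scale on which the median of all genes was 0.18 in place of 0.01. Genes passing an adjusted p of 0.05 numbered 0 in the main analysis, 828 without CONT 3 and ET 1, 184 with DESeq2, 2 with limma-trend on log2(TPM + 0.1) and 1 on log2(TPM + 1). The cause of these differences was not tested. Members passing numbered 0 in the main analysis, 2 (Herpud1 and Atf6) without CONT 3 and ET 1, and 1 (Dnajc3) with DESeq2, and the adjusted p of Dnajc3 reached 0.478 in edgeR. With each library left out in turn no gene passed, 23 to 30 members lay above 0 and their median ran from 0.17 to 0.25.

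Over the alternatives 12 of the 31 tested members had fold changes on both sides of 0. Of these, 8 (Pdia4, Ppib, Manf, Creld2, Syvn1, Derl1, Ero1l and Ero1lb) ran between -0.34 and 0.54 as a group, and 4 are among the 18 members named by the rule. Without CONT 3 and ET 1 the log2 fold change of Pdia3 was -0.0633 and that of Edem1 -0.0125. Sec61b was at 0.13 with a set term, at 0.0712 with library totals only, and at 0.0769 (pseudocount 0.1) and 0.0758 (pseudocount 1) on the TPM scales. With each library left out in turn Sec61b ran from -0.30 to 0.17, Pdia3 from -0.0478 (without ET 1) to 0.27 and Pdia5 from -0.90 to 0.0595 (without ET 2). Of the 342 values of named members, 329 kept their direction and side of the threshold.

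No paired analysis was possible because the labels give no replicate numbers, and those used here only name libraries in accession order. The standard errors of the members, 0.116 to 0.440 with a median of 0.176, limit what 3 libraries against 3 can separate, and the depth of Derl3 (at most 0.488 CPM) left it untested.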
